A study of Mus musculus with 18 samples.

Results

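The genes described here are those of MHC class I antigen display: the classical heavy chains H2-K1 and H2-D1, the shared light chain B2m, the non-classical heavy chains H2-T23, H2-Q4 and H2-M3, and the regulator Nlrc5. They were chosen by gene symbol from the deposited table of FPKM values (fragments per length of gene and per size of the library). All 7 of the 7 named genes were found among 26538, and each had a mean of at least 0.5 FPKM, the filter used before testing. The series comprises RNA sequencing of 18 mouse tumours that fall into 6 groups of 3. The tumours had not been treated themselves, and each came from an animal whose other tumour had been ablated. The ablation was cryoablation (freezing), radiofrequency ablation (heating by alternating current) or cryo-thermal therapy, and each was given alone or together with anti-PD-1, an antibody against an inhibitory receptor of T cells. All 6 groups therefore carry an ablation elsewhere in the body, and no group free of ablation was analysed here. The sources used here give no mouse strain, age, tumour line, collection day or antibody dose. Nothing in the labels ties the 3 tumours of 1 group to different animals. The p-values therefore reflect the spread among these samples, which could be technical.

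Class I molecules are made of a polymorphic heavy chain, beta 2-microglobulin and a short peptide cut by the proteasome, and they show this peptide to CD8 T cells. Without beta 2-microglobulin or peptide, most heavy chains do not reach the cell surface. NLRC5 is a nuclear coactivator without DNA-binding activity of its own that acts on class I promoters through the factors bound at their X and Y boxes. Interferon gamma induces it, and tumours often escape T cells by losing class I display. In bulk tumours class I RNA comes from cancer cells, stroma and immune cells alike, and fewer cells of a type and less RNA per cell cannot be told apart.

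By RefSeq positions on GRCm38.p6, the 5 heavy chain genes lie on chromosome 17 in the MHC, from H2-K1 at 33996012 to 34000619 to H2-M3 at 37270234 to 37274485. B2m is on chromosome 2 at 122147687 to 122153082, and Nlrc5 is on chromosome 8 at 94434335 to 94527272. The sources used here do not give the build behind the deposited values, and these positions only place the genes. The class I promoter elements are shown because the members moved together in the results. Whether these elements had a part in that was not tested. RefSeq promoter sequences were available for 6 of the 7 members, all but Nlrc5. Each is printed 5′ to 3′ on the strand of its gene, and the capitals mark matches to 4 motifs: the kappaB consensus, the interferon response element core GAANNGAAA (or the same with 1 more A after its first 3 letters), the X2 half-site TGACG and the Y box ATTGG, each searched on both strands. The search covered a window from 250 bases before to 50 after the start of each gene, and the stretch shown is the part of it around the matches that lie before the start. Matches can overlap, and where they do the capitals run together. The stretch shown for H2-K1 lies within the RefSeq span of its gene.
H2-K1 (chr17:34000349-34000468, minus strand): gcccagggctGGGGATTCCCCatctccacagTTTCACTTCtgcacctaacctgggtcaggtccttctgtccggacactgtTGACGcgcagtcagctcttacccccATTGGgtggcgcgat
H2-D1 (chr17:35262913-35263055, plus strand): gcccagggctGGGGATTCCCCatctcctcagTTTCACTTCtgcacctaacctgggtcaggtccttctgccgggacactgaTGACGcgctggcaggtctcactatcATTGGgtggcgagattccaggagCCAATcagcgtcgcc
B2m (chr2:122147538-122147648, plus strand): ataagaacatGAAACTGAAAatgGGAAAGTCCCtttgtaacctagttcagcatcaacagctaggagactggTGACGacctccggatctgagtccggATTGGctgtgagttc
H2-M3 (chr17:37270098-37270227, plus strand): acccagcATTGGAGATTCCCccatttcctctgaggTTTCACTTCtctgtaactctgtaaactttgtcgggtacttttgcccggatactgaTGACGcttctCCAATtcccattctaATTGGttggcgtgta
H2-Q4 (chr17:35379433-35379576, plus strand): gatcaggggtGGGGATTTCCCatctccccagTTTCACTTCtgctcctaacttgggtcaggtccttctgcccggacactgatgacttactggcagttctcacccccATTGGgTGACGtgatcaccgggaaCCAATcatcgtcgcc
H2-T23 (chr17:36032739-36032835, minus strand): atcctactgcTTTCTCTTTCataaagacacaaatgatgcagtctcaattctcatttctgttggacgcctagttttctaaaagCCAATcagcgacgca

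Every one of the 6 windows searched holds an interferon response element core, and a kappaB match precedes or follows it in all but that of H2-T23. H2-K1 and H2-D1 carry the same letters at both, GGGGATTCCCC and TTTCACTTC. In H2-K1, H2-D1, B2m and H2-M3 an X2 half-site is followed by a Y box after 20 bases. In H2-Q4 the half-site stands on the other side of the Y box, and the window of H2-T23 holds a Y box on the opposite strand and no X2 half-site. Of 27025 promoter windows of that same extent, 250 bases before to 50 after the start, 8.18% hold the kappaB consensus, 10.4% the interferon core, 21.0% an X2 half-site and 37.9% a Y box. The X2 and Y pair at this spacing is in 26 windows, or 0.0962%, and the spacing was chosen from the members themselves, so their share is a description. A match does not show that a factor binds, and the strain of these mice may differ from the reference.

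B2m had the highest level of the 7 and the third highest mean FPKM of the whole table. Its values were 2183, 2534 and 2179 FPKM in cryoablation tumours, 3627, 3829 and 3031 in radiofrequency tumours, and 4819, 3998 and 3434 after cryo-thermal therapy. With anti-PD-1 they were 4004, 2709 and 2454 FPKM in the cryoablation group, 3670.0, 2631 and 4125 in the radiofrequency group, and 4699.5, 4266 and 4104 in the cryo-thermal group. The 3 tumours after cryoablation alone lay at the bottom of the B2m values with cryoablation plus anti-PD-1 replicate 3 among them.

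H2-K1, a classical chain that presents peptide to CD8 T cells, measured 471.8, 652.8 and 508.0 FPKM in cryoablation tumours, 962.5, 1113 and 679.6 in radiofrequency tumours, and 1431, 1206 and 1045 after cryo-thermal therapy. In the groups with anti-PD-1 it measured 1201, 612.0 and 574.2 FPKM with cryoablation, 909.7, 674.7 and 1065 with radiofrequency ablation, and 1292, 1538 and 1646 with cryo-thermal therapy. Cryo-thermal tumours were above every cryoablation tumour with the same antibody status, and replicate 1 of cryoablation plus anti-PD-1 was close to the lowest of them. H2-D1, the other classical chain, had 701.6, 911.6 and 762.2 FPKM in cryoablation tumours, 1269, 1359.7 and 931.8 in radiofrequency tumours, and 1715, 1537 and 1388 after cryo-thermal therapy. With anti-PD-1 its values were 1541, 835.4 and 888.8 FPKM, then 1139, 948.5 and 1373, then 1525, 1871 and 2053, in the same order of ablations. H2-D1 of cryoablation plus anti-PD-1 replicate 1 lay above the lowest cryo-thermal tumour with the antibody, so those groups overlapped.

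H2-T23 encodes Qa-1, which shows leader peptides of other class I chains to the CD94/NKG2A receptor of NK and T cells. It had the widest range of the members, 8.09-fold between its lowest and highest tumour. Its levels were 11.4, 16.3 and 14.8 FPKM in cryoablation tumours, 29.3, 38.9 and 27.4 in radiofrequency tumours, and 91.4, 57.9 and 49.7 after cryo-thermal therapy. With anti-PD-1 they were 63.8, 20.5 and 20.7 FPKM with cryoablation, 39.3, 25.1 and 47.5 with radiofrequency ablation, and 67.9, 86.5 and 92.6 with cryo-thermal therapy. The groups without antibody did not overlap in H2-T23, in the order cryoablation, radiofrequency, cryo-thermal. Taken alone, the first step was free of overlap in 10.6% of all genes and the second in 8.08%. The share for both steps at once was not computed.

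H2-Q4, a chain of the Q region, had a mean of 78.0 ± 9.59 FPKM (SD, n = 3) after cryoablation, 126.0 ± 33.2 after radiofrequency ablation and 166.1 ± 34.0 after cryo-thermal therapy. With anti-PD-1 the means were 105.5 ± 45.7, 115.0 ± 23.1 and 206.3 ± 31.1 FPKM. H2-M3, which presents N-formylated peptides, had the lowest group mean among the heavy chains, 9.76 ± 0.156 FPKM after cryoablation. Its other means without antibody were 13.7 ± 1.78 after radiofrequency ablation and 15.9 ± 1.23 after cryo-thermal therapy, and with antibody 10.4 ± 3.04, 12.3 ± 2.93 and 17.1 ± 2.07 FPKM for cryoablation, radiofrequency and cryo-thermal.

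Nlrc5 was about as low as H2-M3 and far below the classical chains. It measured 8.09, 9.98 and 8.31 FPKM in cryoablation tumours, 15.7, 18.4 and 9.57 in radiofrequency tumours, and 27.6, 21.3 and 19.5 after cryo-thermal therapy. With anti-PD-1 the values were 19.6, 11.4 and 9.75 FPKM with cryoablation, 18.2, 12.3 and 21.7 with radiofrequency ablation, and 25.7, 34.0 and 37.2 with cryo-thermal therapy. The highest tumour for Nlrc5, H2-K1, H2-D1, H2-T23, H2-Q4 and H2-M3 was cryo-thermal plus anti-PD-1 replicate 3, and for B2m cryo-thermal replicate 1.

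For all 7 genes the group mean was lowest after cryoablation and highest with anti-PD-1 on top of cryo-thermal therapy, whose tumours without the antibody came next. The 3 groups between were close, and their order differed from gene to gene. Of the neighbours in these orders, ranges were apart only between radiofrequency and cryo-thermal for H2-D1 and H2-M3, and for H2-T23 between cryoablation and radiofrequency and between radiofrequency plus anti-PD-1 and cryo-thermal. All other neighbours overlapped. Shares of all genes without overlap are given below for the comparisons tested, which do not include radiofrequency plus anti-PD-1 against cryo-thermal. Near-identical class I genes can share reads, and how the counting treated such reads was not given in the sources used here, so levels of single heavy chains are uncertain.

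**Figure D1:**
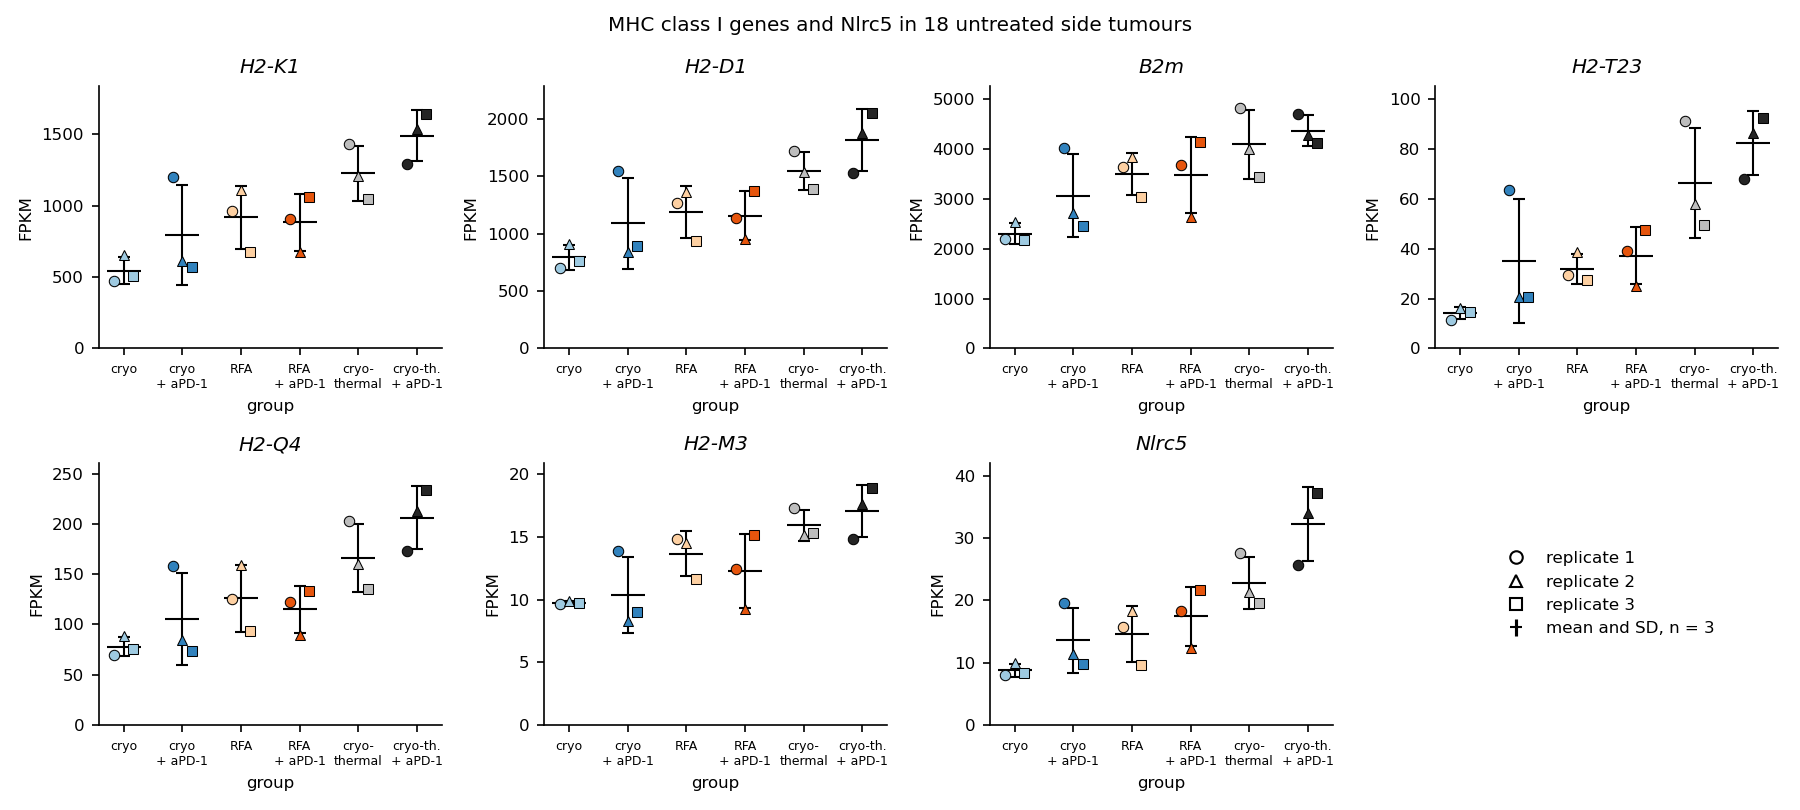
FPKM of each member (vertical axis, from 0) in the 6 groups (horizontal axis), with 1 symbol per tumour and bars for mean and SD of 3; RFA is radiofrequency ablation, cryo-th. cryo-thermal therapy and aPD-1 the anti-PD-1 antibody. Cryoablation tumours are lowest on average in every panel, and replicate 1 of cryoablation plus anti-PD-1 stands above the other 2 of its group.

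The tumours contained RNA of many tissues, measured by marker lists as a mean of log2(FPKM + 1). Relative depth was 0.983 to 1.019 between tumours. Fibroblast genes summed to 657.6 to 2020.2 FPKM, while 6 epithelial genes summed to 2.52 to 7.74 and 5 melanocyte genes to at most 0.321 FPKM, so the type of cancer cell could not be checked by these lists. In 3 tumours skin and hair follicle genes were high, with mean levels of 3.64 and 3.54 in replicates 1 and 2 of cryoablation with anti-PD-1, and 4.35 in replicate 1 of cryo-thermal therapy with anti-PD-1. They are called skin-rich here.

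Cryo-thermal therapy and cryoablation, both without the antibody, were compared first. Every member rose. H2-T23 rose most, 4.33-fold on the scale of log2(FPKM + 1) (log2 fold change 2.12, SE 0.36, adjusted p = 0.00491). Nlrc5 rose 2.41-fold (log2 1.27, SE 0.26, adjusted p = 0.00804) and H2-K1 2.26-fold (log2 1.17, SE 0.26, adjusted p = 0.0103). H2-Q4, at a log2 fold change of 1.07 (adjusted p = 0.015), and H2-D1, at 0.97 (adjusted p = 0.0105), followed. B2m rose by 0.82 (adjusted p = 0.0118) and H2-M3 by 0.65 (adjusted p = 0.0214), again as log2 fold changes. The tests were those of limma, adjusted by Benjamini and Hochberg over 12587 genes.

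The 7 of 7 stand beside 8.01% of all tested genes that rose in this comparison, and the median log2 fold change was 1.07 for the members and -0.01 for all genes. The cryo-thermal tumours were all above the cryoablation tumours for 7 of 7 members, as for 17.7% of all genes. The members move together, so these counts are not 7 separate observations. Without cryoablation replicate 1, 2 of the 7 passed, beside 2.74% of all genes that rose, and without cryo-thermal replicate 1 also 2 of 7, beside 2.35%.

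Immune markers moved with this result. All 6 measured T cell markers and 5 of 6 leukocyte markers rose as well, as did 4 of 9 macrophage and monocyte markers, 1 of 2 measured dendritic cell markers and the 1 measured B and plasma cell marker. Of all tested genes 8.01% rose. Measured markers are those past the filter on low values. Whether some passed it only through the cryo-thermal groups was not checked. B and plasma cell genes summed to only 0.27 to 0.73 FPKM after cryoablation and 1.16 to 6.50 after cryo-thermal therapy. Neutrophil markers went the other way, and 3 of 4 measured fell: they summed to 107.6 to 265.7 FPKM after cryoablation and 5.16 to 39.0 after cryo-thermal therapy. The part of the myeloid and B cell markers in the result was not tested. The leukocyte genes summed to 129.8 to 166.1 FPKM after cryoablation and 207.7 to 415.5 after cryo-thermal therapy, and the T cell genes to 2.22 to 2.96 and 9.68 to 31.7, with none of the leukocyte and T cell markers at 0 in all 3 tumours of a group. Red blood cell genes were lower too, going from 557.5 to 772.0 FPKM after cryoablation to 23.6 to 210.4 after cryo-thermal therapy, and all 5 fell. The share of all genes that fell is not given here. With the leukocyte level as a covariate, an alternative chosen after seeing the data, 0 of 7 members passed limma's test, and their median log2 difference was 0.46. With the erythroid level as a covariate, 0 of 7 passed and the median was 0.61. No gene of the whole table passed in either of those fits. Neither level overlapped between the 2 groups compared, so in these fits the level and the treatment cannot be told apart.

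Radiofrequency ablation lay between the other ablations. Against cryoablation the log2 difference ran from 0.44 for H2-M3 to 1.11 for H2-T23, and in 6 of 7 members, all but Nlrc5, every radiofrequency tumour was above every cryoablation tumour, as in 10.6% of all genes. By limma 0 of 7 passed, beside 0.00794% of all genes that rose, with adjusted p from 0.17 for B2m to 0.28 for Nlrc5, and 7 of 7 had an unadjusted p under 0.05, beside 7.05% of all genes. These shares at an unadjusted p count the genes that were higher in the first group. With array weights, which give less weight to tumours that vary more, 5 of 7 passed and 2.36% of all genes rose. Cryo-thermal therapy against radiofrequency gave differences from 0.21 for H2-M3 to 1.00 for H2-T23, with 0 of 7 past the test and 0.00794% of all genes. H2-D1, Nlrc5, H2-T23 and H2-M3 did not overlap between these groups, 4 of 7 beside 8.08% of all genes. The adjusted p was 0.278 to 0.612, and 2 of 7 had an unadjusted p under 0.05, beside 8.25% of all genes.

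**Figure D2:**
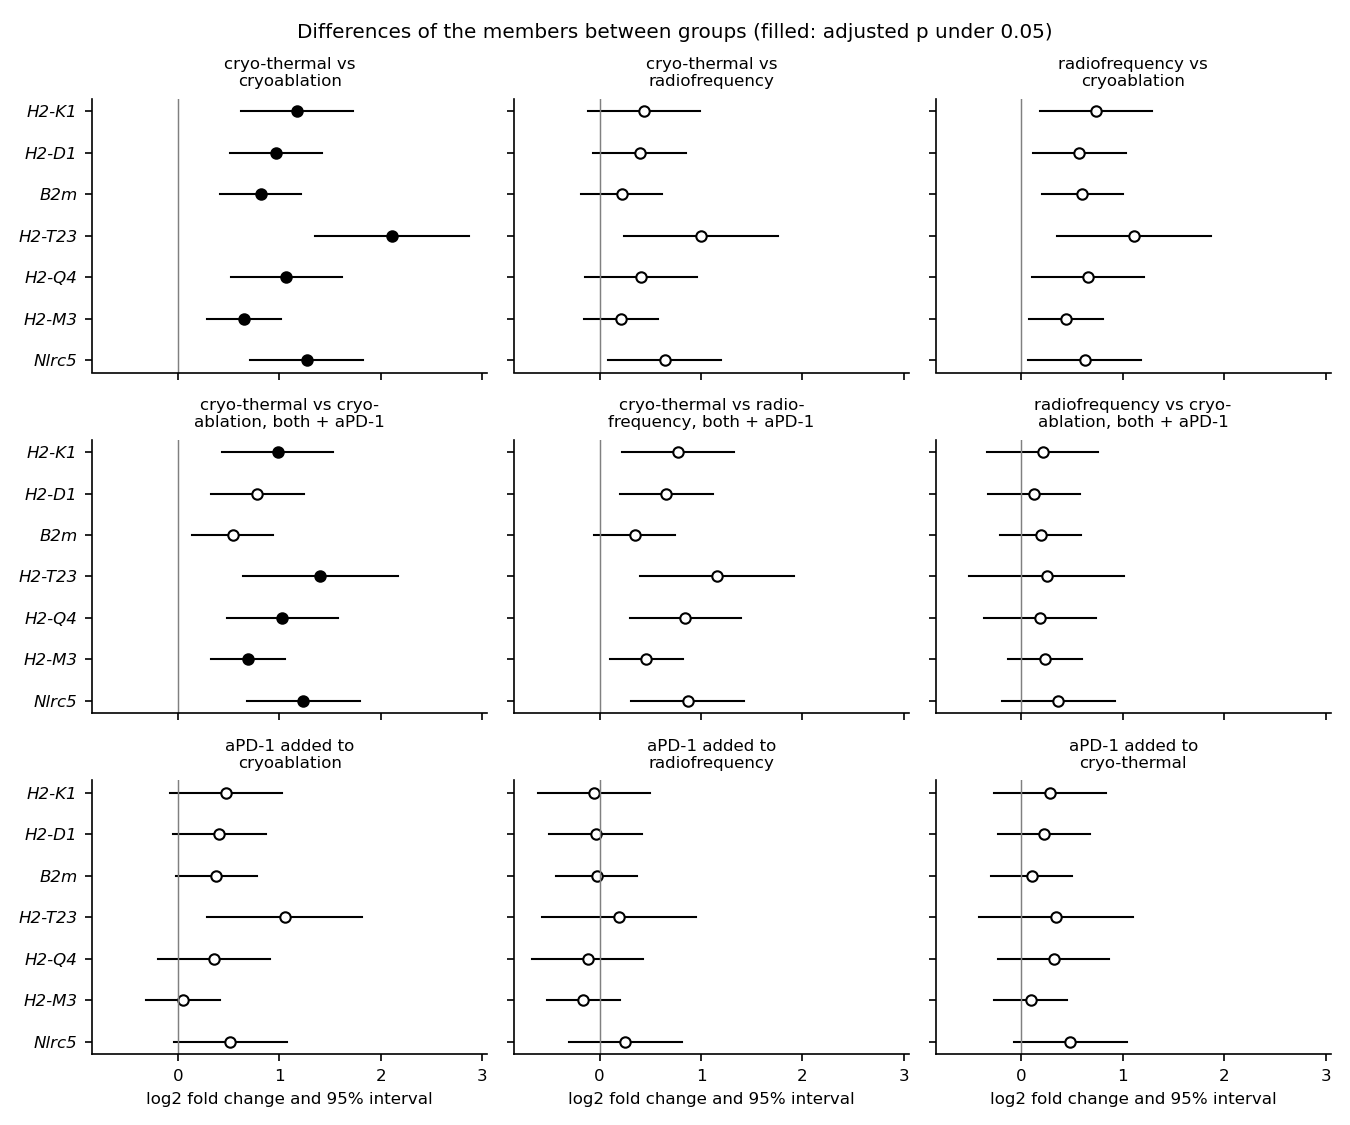
Log2 fold change of each member (horizontal axis, on log2(FPKM + 1)) with its 95% interval, in 9 comparisons of 3 against 3 tumours; aPD-1 is the anti-PD-1 antibody, and filled points have an adjusted p under 0.05. Filled points are in the panels of cryo-thermal therapy against cryoablation, 7 without and 5 with the antibody.

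When both arms had anti-PD-1, cryo-thermal therapy again gave more class I RNA than cryoablation. H2-T23 rose by 1.41 on the log2 scale (adjusted p = 0.0414), Nlrc5 by 1.24 (adjusted p = 0.0241), H2-Q4 by 1.03 (adjusted p = 0.0397), H2-K1 by 0.98 (adjusted p = 0.0459) and H2-M3 by 0.69 (adjusted p = 0.0374). H2-D1 differed by 0.785 (adjusted p = 0.0535) and B2m by 0.54 (adjusted p = 0.114), neither past the threshold. These 5 of 7 stand beside 3.24% of all genes that rose, and the median was 0.98 beside 0.01 for all genes. Every tumour of the cryo-thermal group was above the other group for 6 of 7 members, all but H2-D1, as for 15.5% of all genes.

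These calls depended on single tumours. Without cryoablation plus anti-PD-1 replicate 1, the tumour with high class I and T cell levels, 7 of 7 passed, beside 5.92% of all genes that rose. Without replicate 2 or 3 of that group, or without replicate 2 of the cryo-thermal group with antibody, 0 of 7 passed, and 0.00794% of all genes rose. Without replicate 3 of the latter, 0 of 7 passed and 0.0794% of all genes rose. Without the 3 skin-rich tumours 6 of 7 passed, beside 2.31% of all genes, and H2-Q4 went from 1.03 to 1.58. That fit compares 2 cryo-thermal tumours with 1 cryoablation tumour, replicate 3, which is assumed to vary like the other groups. In a fit of only the groups compared 0 of 7 passed, and 0 of 7 without the filter on low values. The shares of all genes in those fits are not given here, so these counts cannot be read as a result about the members. Leukocyte genes summed to 150.6 to 239.9 FPKM with cryoablation and 287.8 to 338.3 with cryo-thermal therapy in these antibody groups, and T cell genes to 4.43 to 18.7 and 29.98 to 31.3. With the leukocyte level as a covariate 0 of 7 passed, again without a share of all genes, and the median log2 difference was 0.455. The leukocyte level did not overlap between these groups either, so it and the treatment cannot be told apart. Erythroid genes overlapped here, at 52.99 to 104.3 and 80.9 to 316.0 FPKM. So did macrophage and monocyte genes, at 360.6 to 555.3 and 504.3 to 682.0, and dendritic cell genes, at 1.95 to 3.64 and 2.42 to 2.785. B and plasma cell genes overlapped as well, at 0.705 to 2.21 and 1.18 to 1.45. Neutrophil genes, at 22.8 to 83.4 and 25.1 to 382.2 FPKM, were not lower with cryo-thermal therapy, unlike without the antibody.

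Against radiofrequency ablation plus anti-PD-1, cryo-thermal therapy plus anti-PD-1 gave log2 differences from 0.35 for B2m to 1.16 for H2-T23, with 0 of 7 past limma's test (adjusted p 0.105 to 0.358). Of all genes 0.818% rose. The unadjusted p was under 0.05 for 6 of 7, all but B2m, beside 9.2% of all genes, and 5 of 7 did not overlap, beside 11.8% of all genes. With array weights 6 of 7 passed, with the erythroid covariate 4, and without the skin-rich tumours 1, beside 9.57%, 2.68% and 1.04% of all genes that rose in those fits. Radiofrequency and cryoablation, both with anti-PD-1, differed by 0.125 for H2-D1 to 0.36 for Nlrc5. There 0 of 7 passed, with 0 at an unadjusted p under 0.05, and the shares of all genes that were higher were 0% and 3.82%. The groups overlapped for all 7 members, beside 6.03% of genes that did not.

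Adding anti-PD-1 to an ablation gave smaller differences, and 0 of 7 members passed limma's test in each of 3 comparisons. With cryoablation, H2-T23 had a log2 difference of 1.05 (SE 0.36, adjusted p = 0.0968), and Nlrc5 of 0.52 (adjusted p = 0.238). Without replicate 1 of cryoablation plus anti-PD-1 these differences were 0.53 (adjusted p = 0.36) and 0.24 (adjusted p = 0.684). H2-T23 had no overlap there, 1 of 7 members beside 13.6% of all genes. Of all genes 1.79% rose by the test. It was also the 1 member with an unadjusted p under 0.05, beside 10.4% of all genes. With radiofrequency ablation the differences ran from -0.16 for H2-M3 to 0.26 for Nlrc5, with 0 members at an unadjusted p under 0.05 beside 7.4% of all genes. Of all genes 0.0318% rose and 7.66% did not overlap upwards, and of the members 0. Most members were below 0 there, while these shares count genes that were higher. The share of all genes that were lower is not given here. With cryo-thermal therapy the differences ran from 0.09 for H2-M3 to 0.48 for Nlrc5, with 0 at an unadjusted p under 0.05 beside 7.02% of all genes. Of all genes 0.246% rose by the test and 10.6% did not overlap. Array weights gave 5 of 7 in the cryo-thermal comparison, where 23.6% of all genes rose in that fit, and 1 of 7 in the cryoablation comparison, where 6.63% did.

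The effect of the antibody was also compared between ablations, as a difference of differences. In cryo-thermal therapy minus cryoablation it was -0.71 for H2-T23 (SE 0.51, adjusted p = 0.578) and between -0.28 and 0.04 for the other 6, and 0 of 7 passed beside 0.111% of genes that were higher. In cryo-thermal therapy minus radiofrequency it was 0.13 to 0.44, and in radiofrequency minus cryoablation -0.86 to -0.21. In both, 0 of 7 passed and 0% of all genes were higher. No member had an unadjusted p under 0.05 in any of the 3 contrasts, beside 8.21%, 3.27% and 4.87% of all genes that were higher at that threshold. All members were below 0 in radiofrequency minus cryoablation, and most were in cryo-thermal therapy minus cryoablation. For members below 0 these shares are of the other direction, and the share of all genes that were lower is not given here. These 12 comparisons share tumours and are not independent.

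Nlrc5 followed the chains from tumour to tumour. Over the 18 tumours, Pearson's r of Nlrc5 on log2(FPKM + 1) was 0.977 with H2-K1, 0.973 with H2-D1, 0.972 with H2-Q4, 0.962 with H2-T23, 0.918 with B2m and 0.909 with H2-M3. Spearman's rho was 0.856 for H2-M3 and 0.934 to 0.959 for the others. The permutation p of r was 1e-05 for all 6 relations, the smallest that 100000 resamples can give, and 1e-05 after Benjamini and Hochberg adjustment over the 6. For rho it was 3e-05 with H2-M3 and 1e-05 with the others, raw and adjusted. Without the 2 tumours farthest from the median of Nlrc5, cryoablation replicates 1 and 3, r was 0.887 to 0.97. With each group centred on its mean, r was 0.843 for B2m, 0.881 for H2-T23 and 0.918 to 0.973 for the others. The tumours share treatment groups and cell composition, which also enter such a correlation. The permutations shuffled all 18 tumours without regard to group. Some genes outside the members, named below, had a higher r with Nlrc5 than any member. The share of all genes with such an r is not given here.

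The slopes differed between genes. For each unit of log2 in Nlrc5, H2-T23 moved by 1.36, H2-K1 by 0.85, H2-Q4 by 0.83, H2-D1 by 0.70, B2m by 0.53 and H2-M3 by 0.485. B2m was flatter at the top: the 2 tumours with most Nlrc5 had 4266 and 4104 FPKM of B2m, below the 4819 of cryo-thermal replicate 1. Among pairs of members, H2-K1 with H2-D1 had the highest r, 0.994, and B2m with H2-M3 the lowest, 0.896.

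**Figure D3:**
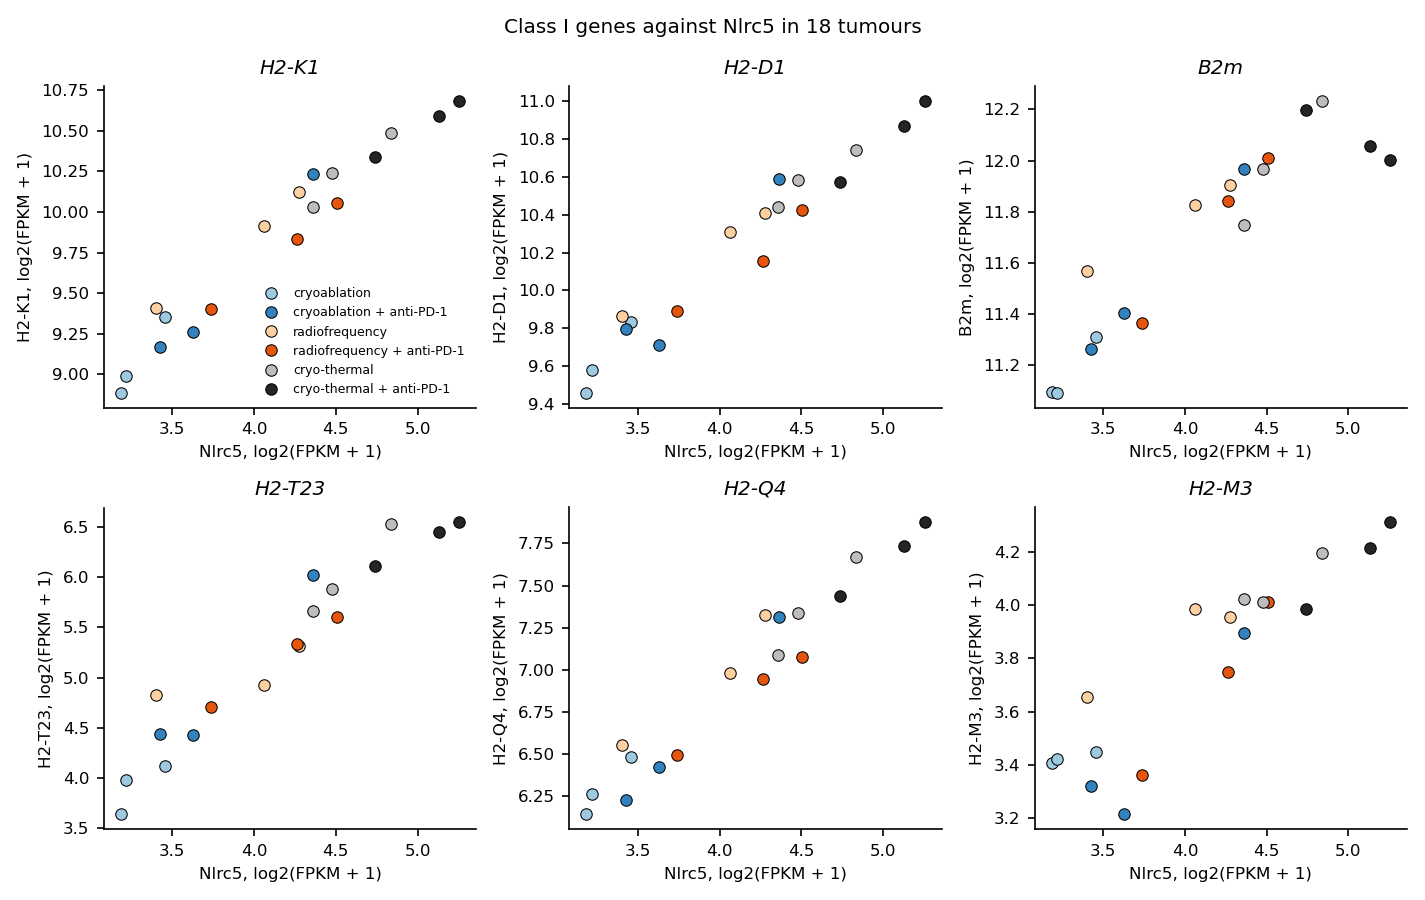
Level of each class I gene (vertical axis) against Nlrc5 (horizontal axis), both log2(FPKM + 1), with 1 point per tumour coloured by group. Points rise from the cryoablation tumours at lower left to the cryo-thermal plus anti-PD-1 tumours at the right, with r of 0.909 to 0.977.

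The genes most like Nlrc5 over the 18 tumours, out of the whole filtered table, were the peptide transporter subunits Tap1 (r = 0.987) and Tap2 (0.985), the transcription factor Irf1 (0.985), the immunoproteasome subunit Psmb10 (0.984) and the predicted gene Gm4841 (0.982). The genes most like the mean of the other 6 members were the immunoproteasome subunits Psmb9 (0.992) and Psmb8 (0.984), the class I chain H2-T22 (0.99), Tap1 (0.982) and Tap2 (0.98). These were picked as the highest of 12587 genes, so their r is a description.

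The members did not rise in equal proportion. The ratio of H2-K1 to H2-D1 was 0.673, 0.716 and 0.6665 in the cryoablation tumours and 0.834, 0.785 and 0.753 in the cryo-thermal tumours. With anti-PD-1 it was 0.779, 0.733 and 0.646 against 0.847, 0.822 and 0.802. The cryo-thermal tumours were above the cryoablation tumours at either antibody status, by 0.20 on the log2 scale on average. H2-T23 relative to H2-K1 was higher by 0.74 log2 units, with means of 0.0261 ± 0.0026 after cryoablation and 0.0531 ± 0.00926 after cryo-thermal therapy, and 0.0409 ± 0.0106 and 0.055 ± 0.0021 with the antibody.

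Nlrc5 relative to H2-K1 was higher by 0.25 and relative to B2m by 0.65 log2 units in cryo-thermal tumours. H2-M3 relative to H2-K1 was lower, at -0.35, and the 2 classical chains together relative to B2m were higher, by 0.28. H2-Q4 relative to H2-K1 differed by -0.02 (exact p = 0.59), which does not show that the ratio was equal. These differences were tested after the data were seen, by an exact 2-sided permutation test that relabels tumours within each antibody status, 400 relabellings in all. The adjusted p over 7 ratios was 0.0088 for H2-K1 to H2-D1, Nlrc5 to H2-K1, Nlrc5 to B2m and H2-M3 to H2-K1, whose raw p of 0.005 was the smallest possible. It was 0.014 for H2-T23 to H2-K1 (exact p = 0.01) and 0.0292 for the classical chains to B2m (exact p = 0.025). Without cryoablation plus anti-PD-1 replicate 2 or 3, or without cryo-thermal plus anti-PD-1 replicate 2 or 3, the classical chains to B2m gave an exact p of 0.05 to 0.08.

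**Figure D4:**
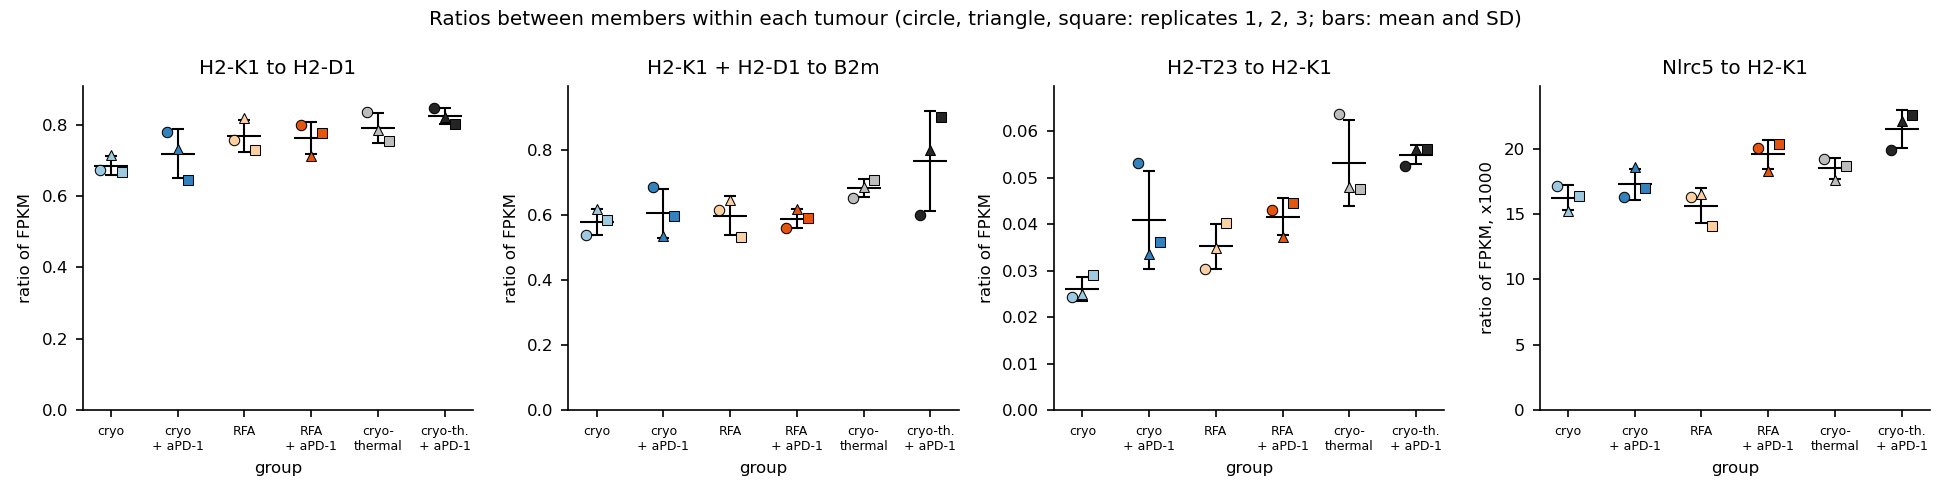
Ratios of FPKM between members within each tumour (vertical axes, from 0, the last multiplied by 1000) in the 6 groups, with 1 symbol per tumour and bars for mean and SD of 3. The H2-T23 to H2-K1 ratio has a mean of 0.0261 after cryoablation and 0.0531 after cryo-thermal therapy, and the Nlrc5 to H2-K1 ratio is highest with cryo-thermal therapy plus anti-PD-1, at a mean of 21.5 per 1000.

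Other class I chains were described by a list of 29 genes, of which 21 were in the table and 9 passed the filter. In cryo-thermal therapy against cryoablation 4 of the 9 rose and 1 fell, with a median of 0.12. Of all genes 8.01% rose, and the share that fell is not given here. H2-Q7 went from 0.178 ± 0.164 to 2.49 ± 0.967 FPKM (SD, n = 3; adjusted p = 0.00451) and H2-Q9 from 0.116 ± 0.1 to 1.67 ± 0.892 (adjusted p = 0.0122). These encode Qa-2 chains and are close copies of each other, so their split is uncertain. H2-T24 went from 0.85 ± 0.318 to 3.68 ± 1.59 FPKM (adjusted p = 0.00829), and H2-T22, a ligand of some gamma delta T cells, rose by 1.40 on the log2 scale (adjusted p = 0.016). Cd1d1, a class I-like chain that presents lipids, fell by 0.38 (adjusted p = 0.0363). With the antibody in both arms 1 of 9 rose, H2-Q9 at 1.095 (adjusted p = 0.0421), while H2-Q7 (0.91, adjusted p = 0.0521) and H2-T22 (1.26, adjusted p = 0.0523) missed the threshold. Of all genes 3.24% rose there. H2-Q9 had a mean of 0.474 FPKM over the other 4 groups and passed the filter on low values only through the cryo-thermal groups. Its calls in both comparisons are therefore a description.

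The machinery that cuts, carries and loads peptide moved with the chains. Of 13 genes, 12 rose in cryo-thermal therapy against cryoablation, with a median of 1.02, beside 8.01% of all genes that rose. Psmb9, an immunoproteasome subunit, went from 13.1 ± 2.92 to 72.1 ± 18.9 FPKM (a log2 difference of 2.37, adjusted p = 0.00783). Tap1, which carries peptide into the endoplasmic reticulum, went from 21.6 ± 5.25 to 82.1 ± 22.7 FPKM (1.87, adjusted p = 0.0104). The chaperone Calr rose less but evenly, from 331.5 ± 8.11 to 475.7 ± 8.75 FPKM (0.52, adjusted p = 0.00433). The gene that did not pass was Canx, at 0.20 (adjusted p = 0.0651). With the antibody in both arms 9 of 13 rose, with a median of 1.14, beside 3.24% of all genes that rose. The smallest p was that of the loading chaperone Tapbp, from 81.1 ± 38.3 to 181.2 ± 22.4 FPKM (adjusted p = 0.0225). Tap2 followed, from 27.9 ± 14.0 to 62.7 ± 9.52 FPKM (adjusted p = 0.0238), and the proteasome activator Psme1, from 90.7 ± 32.8 to 166.9 ± 15.1 (adjusted p = 0.0241).

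Among 19 regulators of class I, 5 rose and 0 fell in the first of these comparisons, with a median of 0.04. Of all genes 8.01% rose, and the share that fell is not given here. Irf9, an interferon regulatory factor, went from 8.01 ± 2.03 to 19.6 ± 3.42 FPKM (a log2 difference of 1.20, adjusted p = 0.00451) and Irf8 from 3.92 ± 0.68 to 13.6 ± 4.19 (1.53, adjusted p = 0.00491). Stat2 (1.46, adjusted p = 0.00693) and Irf1 (1.29, adjusted p = 0.0169) were among them too. The DNA-binding partners through which NLRC5 works did not pass: Rfx5 at 0.13 (adjusted p = 0.52), Rfxap at -0.11 (0.448), Rfxank at 0.12 (0.376), Nfya at -0.21 (0.178), Nfyb at -0.11 (0.275) and Nfyc at 0.04 (0.82). The NF-kappaB subunits Rela, at 0.04 (adjusted p = 0.792), and Nfkb1, at 0.04 (0.742), did not pass either. None of these partners and subunits passed with the antibody in both arms. Rfx5 was at 0.38 there (adjusted p = 0.104) and Nfkb1 at 0.19 (0.113). The others ran from -0.10 for Rfxap (0.581) to 0.20 for Rela (0.259). With the antibody in both arms 5 of 19 rose, beside 3.24% of all genes that rose. Among them were Irf8 (1.27, adjusted p = 0.0228), Irf1 (1.39, 0.0312), Irf2 (0.43, 0.0318) and Irf9 (0.80, 0.0376).

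Of 11 measured interferon and TNF genes, 2 rose in cryo-thermal therapy against cryoablation and 3 when both arms had the antibody. Of all genes 8.01% and 3.24% rose in these 2 comparisons. Ifng, the interferon of T and NK cells, rose in both, by 1.04 (adjusted p = 0.0165) and 1.655 (adjusted p = 0.0101) on the log2 scale. Its mean was 0.347 FPKM over the other 4 groups, so it passed the filter on low values only through the cryo-thermal groups, where it was high. The calls of Ifng in both comparisons are therefore a description, and both counts of this list include it. Among the members and list genes the same held for H2-Q9, at 0.474 FPKM. Socs1, an interferon-induced brake on its signal, rose by 0.86 (adjusted p = 0.0288) and 1.28 (adjusted p = 0.0167). With the antibody Tnfrsf1a, a TNF receptor, rose by 0.30 (adjusted p = 0.0395). The receptor subunit Ifnar2 was at 0.22 without it (adjusted p = 0.0979).

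Of 11 measured receptors that read class I, 7 rose without the antibody (median 1.18) and 5 with it (median 0.92). The shares of all genes that rose were 8.01% and 3.24%. Cd8a and Cd8b1, the CD8 co-receptor, went from 0.225 ± 0.0666 to 3.54 ± 1.62 FPKM (adjusted p = 0.00561) and from 0.0947 ± 0.0364 to 2.49 ± 1.1 (adjusted p = 0.00491). The Ly49 (Klra) genes are close copies of each other, so their levels are uncertain. Klra2, one of them, went from 1.67 ± 0.236 to 7.22 ± 2.52 FPKM (adjusted p = 0.00635). Klrd1 and Klrc1 encode the CD94/NKG2A pair that binds the H2-T23 product. They rose by 1.52 (adjusted p = 0.00656) and 1.18 (adjusted p = 0.0178), and with the antibody in both arms by 1.44 (adjusted p = 0.0225) and 1.21 (adjusted p = 0.0359).

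These list counts moved with the same tumours as the members. Without cryo-thermal replicate 1, 2 of the 13 peptide genes rose, beside 2.35% of all genes. Without cryoablation replicate 1, 3 of 13 rose, beside 2.74% of all genes. In the antibody groups, 0 of 13 rose without replicate 2 or 3 of either group. There only 0.00794% to 0.0794% of all genes rose, so the loss was not particular to this list. Without cryoablation replicate 1, or without cryo-thermal replicate 1, 2 of 9 other class I chains and 0 of 11 interferon and TNF genes rose, beside the same shares of all genes. With the leukocyte covariate, 0 genes of these lists rose past the test in either comparison. Without the antibody no gene of the whole table passed in that fit, and with it the share of all genes is not given here.

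**Figure D5:**
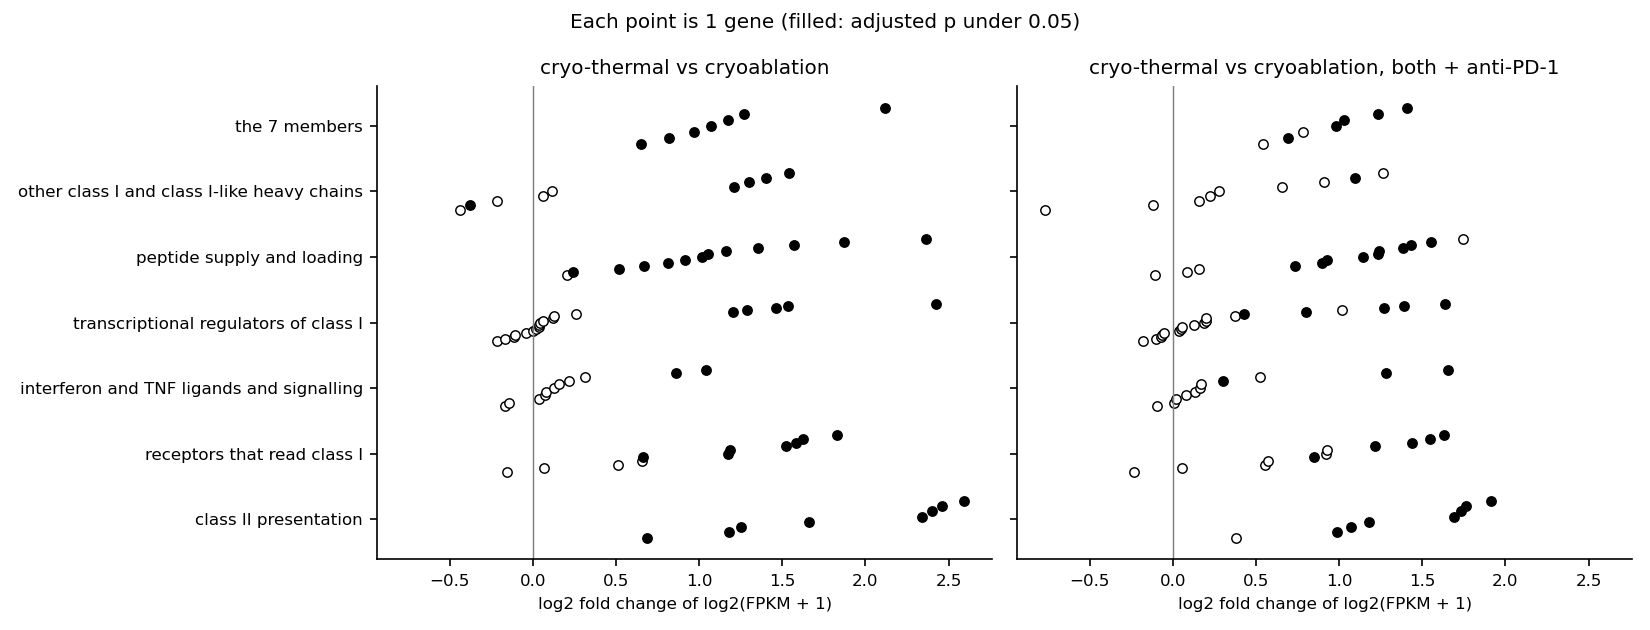
Log2 fold change (horizontal axis) of the 7 members and of each measured gene of 6 related lists (rows) in cryo-thermal therapy against cryoablation, without (left) and with (right) anti-PD-1; each point is 1 gene, filled where the adjusted p is under 0.05. Of the peptide supply genes 12 of 13 are filled on the left and 9 of 13 on the right, where 8.01% and 3.24% of all genes rose.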

How the data were processed

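RNA of 18 tumours was extracted with TRIzol and silica columns and made into libraries with a VAHTS Universal V6 kit, per the labels' protocols. The values are FPKM deposited by the authors. The submitters' processing notes name HTSeq 0.11.2. The aligner, build, annotation and strandedness are not given in the sources used here. No counts are in the table. Low values were whole multiples of 1 step per library in 98.68% of 34986 cases within a tolerance of 0.05, which gave the relative depth, so counting precision is known only in relative terms.

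Values were analysed as log2(FPKM + 1), which understates changes of low genes. Genes with a mean of at least 0.5 FPKM (12587) entered limma 3.58.1 (R 4.3.3), fitted to the 18 tumours together with a variance trend and Benjamini and Hochberg adjustment per comparison, threshold 0.05, 2-sided. The fit was tested on simulated data. Correlations and ratios used Python 3.11.15 with numpy 2.4.6 and pandas 2.3.3. With 3 against 3 an exact permutation test of 1 value cannot go below 0.1, so none was run between single groups.

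The members and lists were chosen with earlier results of these data known. Named genes were the members, up to 3 genes per list with the smallest p in each comparison of cryo-thermal therapy with cryoablation, and the 5 genes most like Nlrc5 and like the other members; other list genes were named after their values were seen, and 1 gene that the rule names is not reported here. H2-Ea, planned as a haplotype check, was not analysed here. Alternatives covered pseudocount, filter, scaling, block, weights, covariates and left-out tumours.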

Additional observations from a re-analysis of the deposited data

How the results depend on the processing

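Of 222 alternative counts of members, 204 stayed within 1.5 times of the main count. Only cryo-thermal therapy against cryoablation, without and with anti-PD-1, had a main count above 0. Most of the agreement is therefore a 0 that stayed 0. The single calls in those comparisons were kept in 10 to 15 of 17 alternatives without the antibody, and in 8 to 10 of 17 with it. For cryo-thermal therapy against cryoablation (7 of 7), the erythroid covariate and the leukocyte covariate each gave 0, and leaving out 1 tumour gave 2 to 7. For the same comparison with anti-PD-1 (5 of 7), no filter on low values gave 0, only the groups compared 0, the leukocyte covariate 0 and the replicate block 2. The shares of all genes in those fits are not given here, so these counts cannot be read as a result about the members. Leaving out 1 tumour gave 0 to 7 in this comparison. Array weights gave 5 for radiofrequency against cryoablation, 6 for cryo-thermal plus anti-PD-1 against radiofrequency plus anti-PD-1, and for anti-PD-1 added 1 with cryoablation and 5 with cryo-thermal therapy, each against 0. The erythroid covariate gave 4 and leaving out the skin-rich tumours 1 for cryo-thermal plus anti-PD-1 against radiofrequency plus anti-PD-1. Scaling to a common sum or upper quartile, a pseudocount of 0.1 and a mean of at least 2 FPKM kept every count within 1.5 times. The leukocyte covariate was chosen after seeing the data. In both comparisons of cryo-thermal therapy with cryoablation it cannot be told apart from the treatment, as the groups did not overlap in leukocyte level. Leaving out a tumour leaves fewer samples, and otherwise the cause was not tested.

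The numbers of the tumours do not pair them: of 45 same-numbered pairs between groups, 13 had correlated deviations over 0.1 (median -0.000676, range -0.467 to 0.591), and 7 of 18 tumours correlated best with their own number. The replicate block changed no other count of members.

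Small differences changed sign. With the erythroid covariate, anti-PD-1 added gave -0.023 for Nlrc5 with cryoablation and -0.023 with radiofrequency, and -0.058 for H2-T23 with radiofrequency. With the leukocyte covariate, cryo-thermal therapy against radiofrequency gave -0.094 for B2m, -0.048 for H2-Q4 and -0.021 for H2-M3. Without radiofrequency plus anti-PD-1 replicate 3, H2-T23 with anti-PD-1 added was -0.003, in a range up to 0.444 with 1 tumour left out. The ratio of H2-Q4 to H2-K1 became 0.012 without the skin-rich tumours, which leaves 1 cryoablation tumour with the antibody. All 126 alternative values of the Nlrc5 correlations kept their sign and passed. The values are FPKM without counts, so no counting interval could be given for low genes such as H2-Q9 and Ifng.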

Other observations

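Class II presentation, the display to CD4 T cells by dendritic cells, macrophages and B cells, differed in the same direction as class I. All 8 measured genes rose in cryo-thermal therapy against cryoablation by limma (median log2 fold change 2.00), and 7 of 8 with anti-PD-1 in both arms (median 1.43). The shares of all genes that rose were 8.01% and 3.24%. Cd74 encodes the invariant chain and went from 103.8 ± 31.3 to 553.1 ± 166.6 FPKM (SD, n = 3; adjusted p = 0.00569), H2-Ab1 from 42.0 ± 13.6 to 235.7 ± 74.8 (adjusted p = 0.00582) and H2-DMb1 from 17.2 ± 2.23 to 56.8 ± 10.3 (adjusted p = 0.00555). Ciita, the class II counterpart of Nlrc5, had log2 fold changes of 1.25 (adjusted p = 0.00676) without and 0.985 (adjusted p = 0.0397) with the antibody, beside 1.27 and 1.24 for Nlrc5. Ciita was much lower, with means of 1.05 and 3.02 FPKM in the antibody groups, beside 13.6 and 32.3 for Nlrc5. The scale of log2(FPKM + 1) understates its changes more, so these values do not rank the 2 genes. Without cryo-thermal replicate 1, 6 of 8 class II genes rose, beside 2.35% of all genes. With the antibody 0 of 8 rose without replicate 2 or 3 of either group, where only 0.00794% to 0.0794% of all genes rose.

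Klra4, listed as a Ly49 receptor of NK cells, was at 41.7 to 80.6 FPKM in the 18 tumours, while the NK and T cell receptor gene Klrd1 was at 0.651 to 6.59. Whether reads of a near-identical copy or of an overlapping feature enter the Klra4 value was not tested, so its level is uncertain. Klra4 did not pass in cryo-thermal therapy against cryoablation (log2 fold change -0.16, adjusted p = 0.598), whereas Klrd1 rose by 1.52 (adjusted p = 0.00656). Klra4 was chosen after its values were seen. Fcgrt, the class I-like receptor that recycles antibodies, was at 11.2 to 38.5 FPKM, with a log2 difference of -0.435 (adjusted p = 0.194) in the same comparison. Some other differences were larger, though not past the test. With anti-PD-1 in both arms, cryo-thermal therapy gave -0.77 against cryoablation (adjusted p = 0.0642) and -0.83 against radiofrequency (0.0747). Anti-PD-1 added to cryo-thermal therapy gave -0.78 (0.135).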
